A study of Mus musculus with 20 samples.

Results

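Gene expression was compared between 14 mouse osteosarcomas from mice with a missense allele of Trp53 and 4 osteosarcomas from p53+/- mice, 18 of the 20 libraries of the series. Members were chosen by the genotype in the labels. The missense tumours comprised 6 tumours of p53R172H/+ mice (called R172H), 3 of p53R245W/+ mice (R245W) and 5 of p53R270H/+ mice (R270H), and the p53+/- tumours (here p53 het) carry 1 wild-type and 1 lost allele in the germ line. The strain of all mice was a mix of C57BL/6J and 129S/SvJae, all tumours were primary with no treatment listed, and bulk total RNA was sequenced. The labels call both the mutants and the controls heterozygous and do not say whether the wild-type allele was still present in a tumour, nor the sex or age of the mice or the bone of origin. The comparison asks which changes were common to tumours with any of the 3 missense proteins, so each genotype was given equal weight in 1 model, and the sign in each genotype is given beside the pooled value.

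The transcription factor p53 activates genes that stop the cell cycle, repair DNA or kill the cell, and among its targets is Mdm2, the ligase that marks p53 itself for destruction. Most tumour mutations of p53 replace 1 amino acid in the domain that binds DNA. Such proteins lose most activation of p53 targets, often build up in tumour cells, and have been reported to act on other genes through partner transcription factors. Osteosarcoma, a tumour of cells that make bone, is a common tumour of mice with an altered Trp53 allele.

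Across all 20616 genes tested, 12 passed the test of missense against p53 het tumours (0.0582%, edgeR quasi-likelihood test, Benjamini-Hochberg adjusted p under 0.05), 1 higher (0.00485%) and 11 lower (0.0534%) in the missense tumours. Most of the genes that passed encode small noncoding RNAs. Of the 11 genes that fell, 7 encode small RNAs: Rny3, a Y RNA, Rn7s1 and Rn7s2, genes of the 7SL RNA of the signal recognition particle, the small nucleolar RNA gene model Gm23442, and the gene models Gm26168, Gm23153 and Gm24514, annotated as miscellaneous RNA. The other 4 were the protein-coding genes Ndufs5 and Adgrv1, the pseudogene Gm11942 and the antisense gene BC018473. The 1 gene that rose was the pseudogene Rpl3-ps1. The log2 fold had the same sign in the 3 genotypes for 10 of the 12, and for none of the 12 were the 14 missense and 4 p53 het tumours without overlap. No protein-coding gene passed this test as higher. At an unadjusted p under 0.05, 2007 genes lay apart (9.74%), 743 higher (3.60%) and 1264 lower (6.13%).

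The sequences of the Y RNAs are shown because they bear on what the counts can tell. Y RNAs are short RNAs bound by the Ro60 protein, and 7SL is the scaffold of the particle that guides secreted proteins to the endoplasmic reticulum. The 2 Y RNA genes lie near each other on chromosome 6 and were read from the GENCODE M21 transcripts (GRCm38). Rny3 (chr6:47781624-47781725, plus strand) has 102 bases and Rny1 (chr6:47788069-47788180, minus strand) 112. Their longest shared run, in capitals, has 12 bases, so exact reads longer than this run can be told apart between these 2 genes. Other genes of like sequence were not compared, and how reads with several matches were counted is not given. Rn7s1 and Rn7s2 have annotated transcripts that are identical to each other over their whole length. Reads of these 2 genes cannot be assigned by sequence, and their values are uncertain as single genes.
Rny3: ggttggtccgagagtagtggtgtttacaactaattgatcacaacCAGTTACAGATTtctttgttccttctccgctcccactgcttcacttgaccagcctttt
Rny1: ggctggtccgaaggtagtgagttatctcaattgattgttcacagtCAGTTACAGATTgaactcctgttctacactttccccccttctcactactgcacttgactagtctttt

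Library totals were 22.8 to 29.2 megacounts in p53 het, 20.1 to 28.8 in R172H, 21.96 to 23.96 in R245W and 20.7 to 26.8 in R270H tumours. Levels are CPM, counts per megacount of the scaled library total, in which the limit that a count of 0 allows, 3 counts, equals 0.0982 to 0.141 CPM per library, for counting error only. A serial number stands in the title of each R172H and R245W tumour and of p53 het 1 and 2, and is absent from the titles of p53 het 3 and 4 and each R270H tumour. What this difference in titles stands for is not given, and for R270H it cannot be told apart from the genotype. Results are therefore also given within a kind of title, as R172H and R245W against p53 het 1 and 2, and as R270H against p53 het 3 and 4. Bone markers were abundant in all tumours. The 19 osteoblast and osteocyte genes summed to 64672 to 163541 CPM in p53 het and 35759 to 159446 CPM in missense tumours. The labels do not say that replicates are separate mice. The edgeR p-values set a difference against the spread between tumours within a genotype and treat the tumours as independent. In the text ± is the standard error of a log2 fold and the standard deviation of a CPM.

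Trp53 itself (ENSMUSG00000059552.13, chr11:69580359-69591873, GRCm38) lay higher in the missense tumours. In the germ line 1 Trp53 allele is lost in the p53 het mice and none in the missense mice. The groups thus differ in the number of alleles as well as in the missense change, and these cannot be told apart here. It was read at 14.5, 31.6, 23.6 and 17.2 CPM in the 4 p53 het tumours. It was read at 36.2, 49.7, 38.3, 38.8, 65.9 and 65.0 CPM in R172H, at 56.9, 76.4 and 60.7 CPM in R245W and at 43.9, 25.5, 29.9, 52.0 and 30.2 CPM in R270H tumours. Group means were 21.7 ± 7.58 CPM in p53 het, 49.0 ± 13.6 CPM in R172H, 64.7 ± 10.3 CPM in R245W and 36.3 ± 11.2 CPM in R270H. In all, 11 of 14 missense tumours lay above the highest p53 het tumour, and the 3 that did not were R270H tumours. The pooled log2 fold was 1.16 ± 0.25, with 1.17 ± 0.27 in R172H, 1.57 ± 0.30 in R245W and 0.74 ± 0.27 in R270H. By exact permutation (two-sided, mean log2 CPM of 14 tumours against 4) Trp53 was higher in the missense tumours (difference 1.13, p = 0.00131, 0.00392 adjusted over 3 genes; the smallest p that the 3060 splits can give is 0.000327). Over all genes it did not pass in edgeR (adjusted p = 0.0854). It passed in DESeq2 (adjusted p = 0.00172) and, in edgeR, without p53 het 2 (1.40 ± 0.26, adjusted p = 0.0355). Within a kind of title the log2 fold was 1.29 ± 0.35 for R172H and R245W and 0.82 ± 0.33 for R270H (edgeR adjusted p = 0.547 and 0.553). The 3 missense genotypes did not pass the test of a difference in Trp53 among themselves (adjusted p = 0.168).

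Cdkn1a, the p53 target that inhibits cyclin-dependent kinases, and Mdm2 did not pass. Cdkn1a was at 21.2, 71.3, 33.1 and 34.8 CPM in p53 het tumours. In the missense tumours it ran from 18.9 to 105 CPM with a median of 44.5. Its log2 fold was 0.44 ± 0.37 (edgeR adjusted p = 0.726, exact permutation p = 0.452, 0.452 adjusted over 3 genes), and the genotype values were -0.02 in R172H, 1.10 in R245W and 0.23 in R270H. Mdm2 stood at 55.2, 56.6, 61.6 and 33.0 CPM in p53 het tumours. In the missense tumours its lowest value was 48.5 CPM and its highest, in R270H 3, 93.2 CPM. Its log2 fold was 0.16 ± 0.17 (edgeR adjusted p = 0.796, exact permutation p = 0.327, 0.452 adjusted over 3 genes), with 0.00 in R172H, 0.02 in R245W and 0.45 in R270H. For each gene 3 missense tumours lay above the highest p53 het tumour, and for Mdm2 p53 het 4 lay below every missense tumour.

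**Figure D1:**
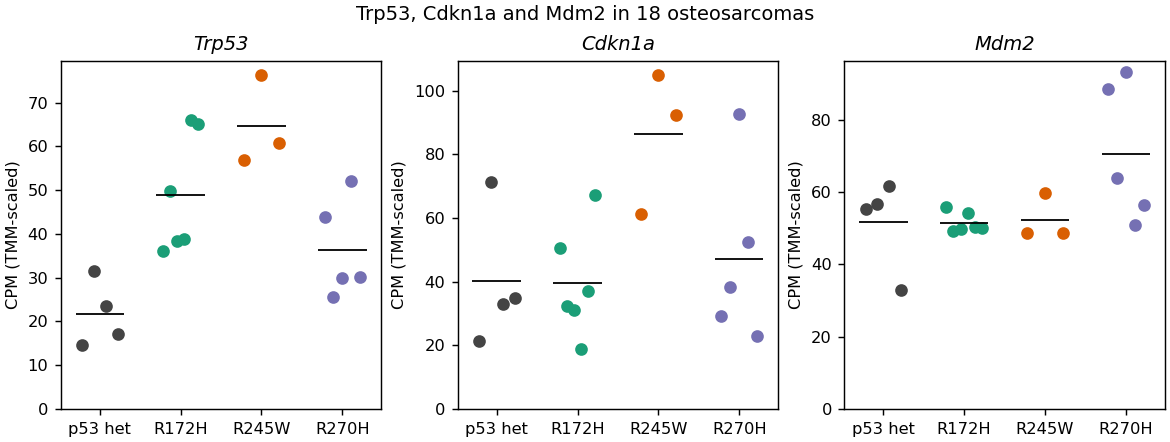
CPM of Trp53, Cdkn1a and Mdm2 (y axes, from 0) in 18 tumours by genotype (x axes); a point is a tumour and a bar is the group mean. Trp53 ran from 14.5 to 31.6 CPM in p53 het and from 25.5 to 76.4 CPM in missense tumours, and for Cdkn1a and Mdm2 alike 3 missense tumours lie above the highest p53 het tumour.

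Other genes around p53 did not pass either. Of 14 tested members of the p53 family and its regulators 8 lay above 0 and 6 below (median log2 fold 0.15, against -0.03 over all genes tested, of which 46.8% lay above 0). Within titles with a serial number this list's median was -0.11. Cdkn2a, whose Arf product restrains Mdm2, was at 21.8, 94.0, 70.8 and 131 CPM in p53 het tumours and at 13.9 to 58.8 CPM in missense tumours. Of the p53 het values 3 lay above every missense value and 1, p53 het 1, did not. Its log2 fold was -1.19 ± 0.35 (adjusted p = 0.258), with -1.17, -1.48 and -0.92 in R172H, R245W and R270H. Hipk2, a kinase that phosphorylates p53, had a log2 fold of 0.78 ± 0.27 (adjusted p = 0.350). Of 28 p53 target genes 11 lay above 0 and 17 below (median -0.08; 0.08 within titles without a serial number). Sesn2, a stress-induced inhibitor of mTORC1, stood at 58.5, 83.0, 27.7 and 38.4 CPM in p53 het and at 11.0 to 37.7 CPM in missense tumours. Its log2 fold was -1.25 ± 0.27 (adjusted p = 0.0904), with -0.95 in R172H, -1.10 in R245W and -1.69 in R270H. Gdf15, a secreted stress factor, had -0.91 ± 0.43 (adjusted p = 0.502). Of 25 genes reported as targets of mutant p53, 12 lay above 0 and 13 below (median -0.02). The median was 0.24 within titles with a serial number, 0.31 within those without and -0.06 to 0.30 with 1 tumour left out. An unadjusted p under 0.05 was reached by 3 (12%, against 9.74% of all genes), all higher. They were Pdgfrb, a growth factor receptor (0.57 ± 0.21, adjusted p = 0.394), Ect2, an exchange factor needed for cell division (0.77 ± 0.34, adjusted p = 0.469), and the deacetylase Sirt1 (0.47 ± 0.22, adjusted p = 0.503). The median of the mutant p53 list was 0.28 in R172H, 0.00 in R245W and 0.09 in R270H. The 19 genes of mevalonate and cholesterol synthesis, which make the precursors of sterols, had 11 above 0 and 8 below (median 0.01; 0.18 within titles with a serial number and -0.34 within those without), with Idi1, an isomerase of the pathway, at 0.83 ± 0.34 (adjusted p = 0.441) and Mvd, a decarboxylase, at -0.27 ± 0.22 (adjusted p = 0.718).

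The Y RNAs and 7SL RNAs were highest in p53 het 3 and 4 and, among the missense tumours, in R270H, which are the libraries whose titles have no serial number. Rny3 (ENSMUSG00000064945.1) was at 35.0, 35.9, 3053 and 708 CPM in p53 het 1 to 4. It ran from 8.52 to 41.7 CPM in R172H, with a median of 11.2, was read at 11.8, 29.6 and 14.4 CPM in R245W, and at 134, 120.0, 254, 109.7 and 133 CPM in R270H tumours. Only p53 het 3 and 4 exceeded all missense tumours, and among the missense tumours the 5 R270H tumours were the highest. Its pooled log2 fold was -4.73 ± 0.72 (edgeR adjusted p = 0.0420), with -5.83 in R172H, -5.69 in R245W and -2.68 in R270H. The 3 missense genotypes differed in Rny3 (edgeR F test, adjusted p = 0.0475). Within titles with a serial number the log2 fold was -1.0 ± 0.52 (adjusted p = 0.674) and within those without one -3.66 ± 0.51 (adjusted p = 0.219). With p53 het 1 and 2 as the sole controls the pooled value was 0.02 ± 0.50 (adjusted p = 0.998). When 1 tumour was left out, the call held without p53 het 1 (adjusted p = 0.00279), p53 het 2 (0.00295) or R270H 1 (0.04998) and ended in the other 15 fits (adjusted p up to 0.127). The fold was smallest without p53 het 3 (-2.85, adjusted p = 0.124).

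Rny1 (ENSMUSG00000065701.1) had 47.5, 46.0, 2615 and 1875 CPM in p53 het 1 to 4. It ran from 15.4 to 80.6 CPM in R172H and from 17.1 to 104 CPM in R245W, and from 171 to 336 CPM in R270H tumours. Its log2 fold of -3.93 ± 0.71 did not pass (adjusted p = 0.0517). Within titles without a serial number it was -3.12 ± 0.28, which passed (adjusted p = 0.0349), and within those with one -0.21 ± 0.73 (adjusted p = 0.958). The 7SL genes had the same order of groups at lower levels. Rn7s2 (ENSMUSG00000099250.1) stood at 0.804, 0.947, 34.3 and 30.4 CPM in p53 het 1 to 4, at 0.111 to 0.758 CPM in R172H, at 0.794, 1.18 and 0.819 CPM in R245W and at 6.46 to 12.8 CPM in R270H tumours. It had a log2 fold of -3.50 ± 0.62 (edgeR adjusted p = 0.0436), with -5.31 in R172H, -4.15 in R245W and -1.04 in R270H, and the missense genotypes differed (F test, adjusted p = 0.0131). Rn7s1 (ENSMUSG00000099021.1) had 0.0423, 0.172, 12.1 and 5.73 CPM in p53 het 1 to 4. It was near or under the floor in R172H and R245W tumours (0 to 0.268 CPM) and at 0.527 to 1.31 CPM in R270H. Its fitted log2 fold of -4.47 ± 0.77 (edgeR adjusted p = 0.0436) therefore rests on few counts. With p53 het 1 and 2 as controls the fold was 0.84 ± 0.83 for Rn7s1 and 0.73 ± 0.50 for Rn7s2. In leave-one-out fits both kept the call when p53 het 1 or p53 het 2 was left out and lost it in the other 16. The kind of title moved with all these genes. With it as a covariate, whose effect the 4 p53 het tumours alone estimate, the log2 folds were -1.88 ± 0.39 for Rny3, -1.18 ± 0.45 for Rny1, -1.25 ± 0.60 for Rn7s1 and -0.995 ± 0.33 for Rn7s2. None of these passed (edgeR adjusted p = 0.177, 0.497, 0.606 and 0.436).

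**Figure D2:**
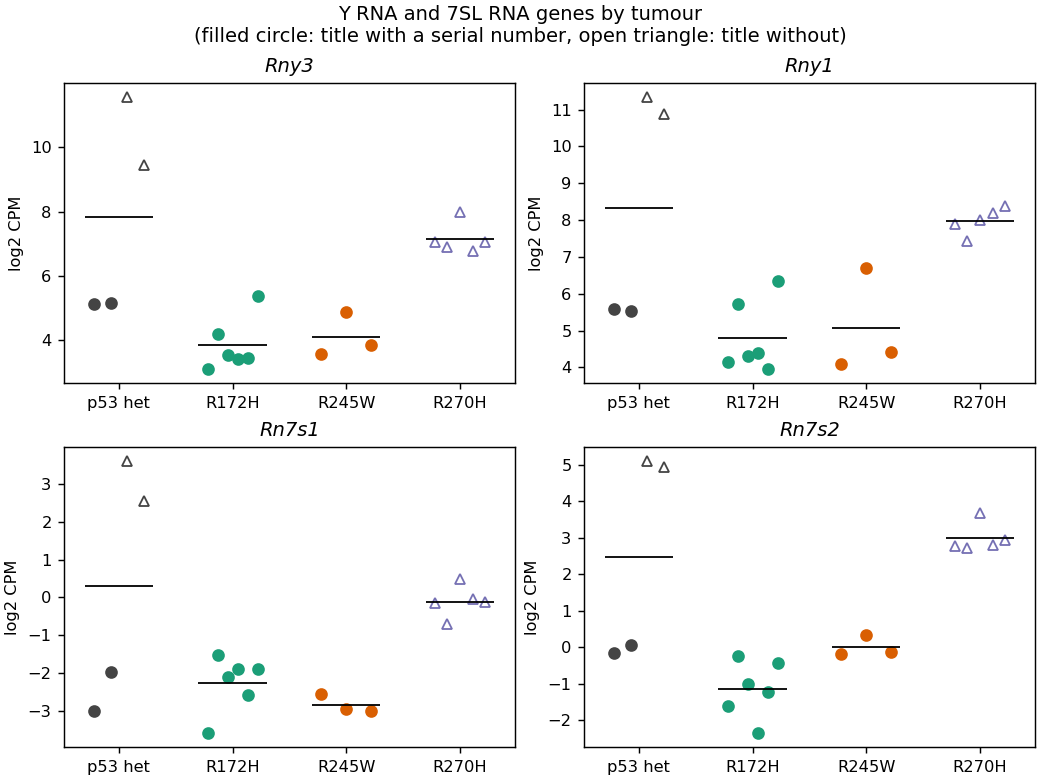
Log2 CPM (y axes) of 4 small RNA genes in 18 tumours by genotype (x axes); filled circles are libraries whose title has a serial number, open triangles those without, and bars are group means. In each panel p53 het 3 and 4 are the highest of the 18 and the R270H triangles lie above all circles, with means over p53 het that mix a high and a low pair.

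Of the other small RNA genes called, Gm23442 (chr17:35162563-35162696) was at 1.48, 1.81, 186 and 33.95 CPM in p53 het 1 to 4 and at 0.814 to 9.42 CPM in the missense tumours, the highest in R270H. Pooled, the log2 fold was -4.45 ± 0.69 (edgeR adjusted p = 0.0420), but -0.09 ± 0.38 within titles with a serial number and -3.98 ± 0.51 within those without. Without p53 het 3 it was -2.28 (adjusted p = 0.174). Gm26168 had -3.40 ± 0.56, Gm24514 -4.27 ± 0.74 (-2.65 without p53 het 3, adjusted p = 0.213) and Gm23153, at 0 in most R172H and R245W tumours, a fitted value of -5.89 ± 0.93. Among all 175 small nucleolar RNA genes tested, 30.9% had an unadjusted p under 0.05, 45 lower and 9 higher. Of the 69 miscellaneous RNA genes, 16 were lower and 3 higher by that rule (27.5%, against 9.74% of all genes). The median log2 fold of small nucleolar RNA was -0.29 pooled, with -0.75 in R172H, -0.45 in R245W and 0.28 in R270H. That of the 69 miscellaneous RNA genes was 0.09, with 36 above 0 and 33 below. For 140 small nuclear RNA genes it was 0.07, with 77 above and 63 below. Small RNA genes together took 3.14 to 5.97% of all counts in p53 het and 2.42 to 8.26% in missense tumours. A list of 18 non-polyadenylated RNAs had 14 tested members, 11 below 0 and 3 above, and 5 with an unadjusted p under 0.05 (35.7%). It lay at a median of -0.71 pooled, at -0.17 within titles with a serial number and at -0.11 within those without. Its sum was 60621.5, 55417.9, 39998.4 and 23277.6 CPM in p53 het 1 to 4, and 19939.1 to 77458 CPM in missense tumours. The 4 members not tested, Rnu11, Snora73b, Snora74a and Snord15b, were at 0 in all 18 tumours.

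Adgrv1 (ENSMUSG00000069170.13, chr13:81095068-81633154), which encodes a very large adhesion receptor known from the inner ear and retina, fell, but the change rested on 1 tumour. It stood at 0.889, 6.37, 0.840 and 43.0 CPM in p53 het 1 to 4 and at 0.484 to 2.15 CPM in the missense tumours. Only p53 het 4 and 2 lay above the missense range, and the other p53 het tumours lay within it. The log2 fold was -3.63 ± 0.63 (edgeR adjusted p = 0.0436), with -3.37 in R172H, -3.99 in R245W and -3.51 in R270H, and the 3 genotypes did not pass the test of a difference (adjusted p = 0.881). Without p53 het 4 it was -1.39 (adjusted p = 0.455), and the call held when p53 het 1, 2 or 3 was left out but in none of the other 15 fits. p53 het 4 was also the tumour with the most skeletal muscle RNA (7834 CPM summed over 17 muscle genes, against 383 to 779 CPM in the other 3 p53 het tumours). In R270H 2 the muscle sum was 4610 CPM with Adgrv1 at 0.484 CPM, and in p53 het 2 it was 383 CPM with Adgrv1 at 6.37 CPM. With the muscle score as a covariate the log2 fold of Adgrv1 was -2.74 (edgeR adjusted p = 0.124), in a fit where no gene passed. What part muscle had in the Adgrv1 values was not tested.

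The other called genes differed among the missense genotypes. Ndufs5 (ENSMUSG00000028648.13, chr4:123712710-123718202), a subunit of complex I of the respiratory chain, was at 20.4, 22.4, 19.8 and 7.56 CPM in p53 het tumours. It lay at 17.5 to 22.1 CPM in R172H and at 9.95 to 15.2 CPM in R270H, but at 0.662, 1.03 and 1.64 CPM in R245W tumours. The fold on the log2 scale was -1.41 ± 0.22 pooled (edgeR adjusted p = 0.0420), made of 0.23 in R172H, -3.97 in R245W and -0.48 in R270H, and the genotypes differed (F test, adjusted p = 3.54e-05). Rpl3-ps1, a pseudogene of a ribosomal protein gene, was read at 70.7, 97.1 and 111 CPM in R245W tumours and at 0.344 to 2.06 CPM in the other 15. Its pooled log2 fold of 1.92 ± 0.33 (edgeR adjusted p = 0.0436) was made of -0.76, 6.22 and 0.28 in R172H, R245W and R270H. Reads of a pseudogene cannot always be told from those of its parent gene. Gm11942 was at 5.97, 1.55, 0.746 and 24.7 CPM in p53 het 1 to 4 and at 4.18 to 6.60 CPM in R245W, but at 0.379 CPM or less in the other missense tumours. BC018473 was at 53.3, 0.215, 0.280 and 4.98 CPM in p53 het 1 to 4 and at 8.51 to 16.02 CPM in R245W, but at 0.211 CPM or less in the others, near or under the floor. So both overlapped p53 het in R245W. The log2 folds of Gm11942 were -6.06, -0.54 and -5.22 and those of BC018473 -7.12, -0.27 and -7.19 in R172H, R245W and R270H. With 1 tumour left out the call of Gm11942 held in 3 of 18 fits and that of BC018473 in 2 of 18. Without p53 het 4 Gm11942 had -2.36 (adjusted p = 0.310), and without p53 het 1 BC018473 had -1.85 (adjusted p = 0.254). Without R245W tumours Ndufs5 had -0.13 (adjusted p = 0.900) and Rpl3-ps1 -0.24 (adjusted p = 0.873).

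No protein-coding gene passed as higher, and the 5 of lowest p that met the other naming conditions were Trp53, Afap1, Tacr1, Megf10 and Foxo1. They had positive folds in each genotype. Each passed in DESeq2 and none in limma voom.
Afap1 (ENSMUSG00000029094.12, chr5:35893319-36003923) encodes a protein that links actin filaments and binds Src. It stood at 38.8, 38.5, 45.1 and 47.3 CPM in p53 het tumours. In R172H tumours it ran from 50.9 to 62.7 CPM, in R245W tumours it was read at 59.3, 65.4 and 68.2 CPM and in R270H tumours at 58.0, 73.7, 68.8, 69.2 and 54.2 CPM. All 14 missense tumours lay above all 4 p53 het tumours. The log2 fold was 0.54 ± 0.12 (edgeR adjusted p = 0.0854, DESeq2 adjusted p = 0.000393), with 0.42 in R172H, 0.60 in R245W and 0.61 in R270H. It was 0.65 ± 0.16 within titles with a serial number and 0.48 ± 0.20 within those without, and the genotypes did not pass the test of a difference (adjusted p = 0.467). On plain library totals the 2 groups of Afap1 overlapped.

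Tacr1 (ENSMUSG00000030043.11, chr6:82402334-82560104), the receptor of the neuropeptide substance P, was a gene of low level, with 0.254, 0.129, 0.373 and 0.327 CPM in p53 het tumours. It ran from 0.981 to 2.37 CPM in R172H, was read at 1.28, 0.329 and 0.655 CPM in R245W and ran from 0.549 to 1.69 CPM in R270H tumours. All but 1 of the missense tumours, R245W 2, lay above the p53 het range. The log2 fold was 1.94 ± 0.43 (edgeR adjusted p = 0.103), with 2.67 in R172H, 1.46 in R245W and 1.68 in R270H. Within a kind of title it was 2.56 ± 0.61 and 1.31 ± 0.60.
Megf10 (ENSMUSG00000024593.15, chr18:57133090-57297467), an engulfment receptor that also acts in muscle precursor cells, was at 17.8, 9.78, 23.8 and 26.8 CPM in p53 het and from 17.9 to 90.4 CPM in missense tumours. Of the missense tumours 1, R172H 1, lay within the p53 het range and the other 13 above it. The log2 fold was 1.59 ± 0.36 (edgeR adjusted p = 0.127), with 1.23 in R172H, 1.77 in R245W and 1.78 in R270H.
Foxo1 (ENSMUSG00000044167.6, chr3:52268336-52353221), a forkhead transcription factor held out of the nucleus by insulin signalling, stood at 23.2, 27, 32.2 and 16.2 CPM in p53 het tumours. It ran from 24.1 to 64.3 CPM in R172H, was read at 93.2, 149.6 and 83.6 CPM in R245W and ran from 25.3 to 81.9 CPM in R270H tumours. The R245W tumours were the highest of the 18, and 11 of 14 missense tumours lay above the p53 het range. The log2 fold was 1.31 ± 0.30 (edgeR adjusted p = 0.129), with 0.77 in R172H, 2.14 in R245W and 1.02 in R270H. The 3 missense genotypes differed in Foxo1 (F test, adjusted p = 0.0423).

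**Figure D3:**
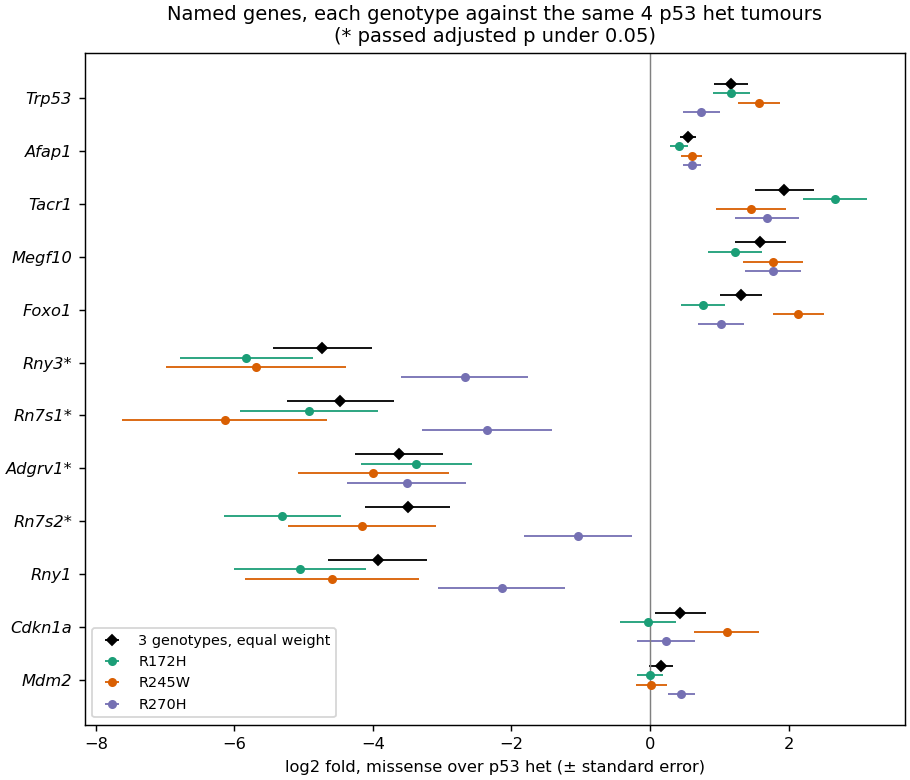
Log2 folds over p53 het (x axis) of the named genes (y axis), with bars for ± 1 standard error; diamonds weight the 3 genotypes equally and circles are single genotypes, all against the same 4 p53 het tumours. Trp53, Afap1, Tacr1, Megf10 and Foxo1 lie right of 0 in each genotype without passing, and the small RNA genes lie farther left in R172H and R245W than in R270H.

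Genes without overlap between the groups were few. Every missense tumour lay above every p53 het tumour for 12 of the 20616 genes (0.0582%), and below for 3 (0.0146%). With CPM on plain library totals these were 16 (0.0776%) and 4 (0.0194%), with 9 and 2 genes in both. None of the 15 passed adjusted p, and those named were chosen after their values were seen. Besides Afap1 the protein-coding genes above included Has3, Pcdhb3 and Purg. Has3, a synthase of hyaluronan, had 3.64, 4.52, 4.20 and 4.55 CPM in p53 het tumours and 4.71 to 11.3 CPM in missense tumours (0.74 ± 0.22, adjusted p = 0.264). Pcdhb3, a protocadherin of low level, was at 0.254 to 0.388 CPM in p53 het tumours (2.70 ± 0.97). In missense tumours it ran from 0.411 CPM to 15.1 CPM in R172H 2, with a median of 0.922. Purg, a single-stranded DNA binding protein, was at 7.11 to 8.26 CPM in p53 het tumours (0.77 ± 0.32). In missense tumours it ran from 8.33 to 34.2 CPM, with a median of 10.6. Of the others, 6 were gene models annotated only as awaiting experimental support and 1 was a pseudogene. Below lay the noncoding genes Eif2c5 and Gm26634 and the tether gene Aspscr1, which holds glucose transporter vesicles. Eif2c5 stood at 8.97, 4.31, 2.57 and 9.49 CPM in p53 het and from 0 to 1.59 CPM in missense tumours (-3.81 ± 0.81, adjusted p = 0.0854). Aspscr1 was at 30.6, 34.3, 31.9 and 32.1 CPM in p53 het and from 14.5 to 29.8 CPM in missense tumours (-0.49 ± 0.15, adjusted p = 0.289). On plain library totals the groups of Has3 and Aspscr1 overlapped.

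Gene models awaiting experimental support lay above 0 as a class. Of 1284 tested, 989 lay above 0, against 9657 of all 20616 genes, with a median log2 fold of 0.29 (0.41 in R172H, 0.43 in R245W and 0.05 in R270H). None passed on its own, and 156 were higher and 14 lower at an unadjusted edgeR p under 0.05 (13.2%, against 9.74% of all genes, 3.60% higher and 6.13% lower). Other classes leaned the same way. Of 1100 antisense genes 686 lay above 0 (median 0.11, with 0.22, 0.22 and -0.04 in R172H, R245W and R270H). Of 940 processed pseudogenes 543 did (0.11, with 0.17, 0.31 and -0.05), and of 109 microRNA genes 69 (0.11, with 0.27, 0.31 and -0.10). Of 166 sense intronic genes, which lie inside introns of other genes, 135 lay above 0 (median 0.36, with 0.43, 0.56 and 0.11 in the 3 genotypes), and of 15050 protein-coding genes 6326 (median -0.06). Whether counting used strand is not known here, so reads of these models and of introns of the genes around them cannot be told apart.

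Genes of protein quality control lay low in the missense tumours without passing singly. The unfolded protein response restores folding in the endoplasmic reticulum through the sensors that lead to Xbp1, Atf4 and Atf6. Of its 21 genes 18 lay below 0 and 3 above, with a median of -0.28 (-0.30 in R172H, -0.46 in R245W and -0.27 in R270H; -0.29 within titles with a serial number and -0.16 within those without). By unadjusted p under 0.05, 5 were lower and 0 higher (23.8%, against 9.74% of all genes). Chac1, a glutathione-degrading enzyme induced by Atf4, stood at 28.3, 41.3, 8.07 and 17.7 CPM in p53 het tumours. In missense tumours it ran from 1.51 to 12.2 CPM, so that only p53 het 3 lay within the missense range. It had a log2 fold of -2.10 ± 0.49 (adjusted p = 0.140), with -1.87, -1.56 and -2.88 in R172H, R245W and R270H. Xbp1, a transcription factor of the response, was at 237, 263, 192 and 208 CPM in p53 het and from 92.9 to 244.8 CPM in missense tumours. Pooled, the log2 fold was -0.66 ± 0.19 (adjusted p = 0.237). Atf4, the factor of the integrated stress response, had -0.76 ± 0.27 (adjusted p = 0.367) and its target Trib3, a pseudokinase, -1.63 ± 0.60 (adjusted p = 0.384). Xbp1 is also on the plasma cell list, whose 12 genes summed to 255 to 527 CPM in p53 het and 136 to 341 CPM in missense tumours, a part that was not tested.

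The proteasome, which degrades tagged proteins, had 27 of 31 genes below 0 (median -0.21), but its medians were -0.38 in R172H, -0.33 in R245W and 0.10 in R270H. Psmb2, a core subunit, had -0.45 ± 0.17 (adjusted p = 0.399), the ATPase Psmc5 -0.46 ± 0.18 (adjusted p = 0.404), Psmb5, a catalytic subunit, -0.77 ± 0.31 (adjusted p = 0.415) and Psmd11, a lid subunit, 0.32 ± 0.13 (adjusted p = 0.428). Within titles with a serial number the median was -0.04. Of 28 genes of oxidative phosphorylation 24 lay below 0 (median -0.28). Ndufs5, lowest in R245W, was the 1 that passed. Ndufa4 had -0.98 ± 0.31 (adjusted p = 0.300) and Ndufa2 -1.12 ± 0.36 (adjusted p = 0.306), but both moved with the kind of title. In p53 het 1 to 4 Ndufa4 was at 55.4, 51.2, 289 and 98.2 CPM and Ndufa2 at 18.1, 16.5, 129.7 and 87.8 CPM. For both genes every R270H tumour lay above every R172H and R245W tumour. The median of the oxidative phosphorylation list was 0.05 within titles with a serial number and -0.40 within those without. The 11 tested mitochondrially encoded genes had 4 above 0 and 7 below (median -0.15; -0.21 within titles with a serial number and 0.38 within those without). Of the 3 of lowest p, mt-Nd3 and mt-Co2 were at 0.700 CPM or less in every tumour, and mt-Nd3 was under the floor in R245W. Their fitted folds of -1.78 ± 0.65 and -0.84 ± 0.34 therefore rest on few counts (edgeR adjusted p = 0.384 and 0.429). The abundant mt-Nd5, a complex I subunit, was at 604, 637, 347 and 169 CPM in p53 het and from 263 to 1225 CPM in missense tumours, of which 6 lay above the p53 het range (0.63 ± 0.30, adjusted p = 0.512). Of 19 genes of hypoxia and glycolysis 15 lay below 0 (median -0.21), led by Car9, a carbonic anhydrase induced by hypoxia (-1.49 ± 0.55, adjusted p = 0.391), and the glycolytic enzyme Pgk1 (-0.84 ± 0.45, adjusted p = 0.570). This median was 0.01 within titles with a serial number and 0.14 without p53 het 4.

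Notch receptors are cut after binding a ligand on a neighbouring cell, and the freed part switches on Hes genes. Of 13 Notch genes 12 lay above 0 and 1 below, with a median of 0.35 (0.45, 0.33 and 0.41 in R172H, R245W and R270H; 0.17 and 0.52 within titles with and without a serial number). The target Hes1 stood at 8.80, 20.3, 15.5 and 8.12 CPM in p53 het and from 16.2 to 46.4 CPM in missense tumours (0.92 ± 0.30, adjusted p = 0.322). The receptor Notch3 had 1.0 ± 0.40 (adjusted p = 0.413) and the receptor Notch4 0.41 ± 0.19 (adjusted p = 0.514). Notch4 is made by endothelium, and of 15 endothelial genes 13 lay above 0 (median 0.19, and -0.01 without p53 het 4). They summed to 422 to 1024 CPM in p53 het, lowest in p53 het 4, and to 637 to 1233 CPM in missense tumours. What part this had in the Notch values was not tested. Of 16 genes of the TGF-beta response 10 lay above 0 and 6 below (median 0.13), with medians of 0.31 in R172H, -0.17 in R245W and 0.03 in R270H and of -0.01 without R172H tumours. Smad7, the inhibitor that this pathway induces against itself, was at 18.9, 17.8, 17.9 and 20.5 CPM in p53 het tumours. All but 1 of the 14 missense tumours lay above them, from 23.5 to 45.2 CPM, and R245W 2 had 19.8 CPM. The log2 fold of Smad7 was 0.76 ± 0.18 (adjusted p = 0.161), with 0.98, 0.71 and 0.59 in R172H, R245W and R270H. Skil, a repressor of Smad proteins, had 0.51 ± 0.21 (adjusted p = 0.427) and Ccn2, a matrix protein, 1.36 ± 0.65 (adjusted p = 0.516). Immediate early genes, which answer growth signals and handling of tissue within minutes to hours, had 13 of 18 above 0 (median 0.37, and -0.06 in R245W). Egr1 stood at 19.0, 15.4, 7.84 and 9.56 CPM in p53 het and from 17.2 to 249 CPM in missense tumours (1.90 ± 0.73, edgeR adjusted p = 0.404). R172H 6 (249 CPM) and R270H 3 (174 CPM) were the highest, and the missense median was 28.7 CPM. Jund, of the AP-1 family, had -0.53 ± 0.23 (adjusted p = 0.446), with -0.20 in R172H, -0.01 in R245W and -1.39 in R270H and a difference among the genotypes (F test, adjusted p = 0.0200).

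Lists of growth had no common direction across genotypes or kinds of title. Of 22 DNA replication genes 13 lay above 0 (median 0.06; -0.16 in R172H, 0.30 in R245W and 0.00 in R270H; 0.36 within titles with a serial number and -0.23 within those without), of 22 mitosis genes 9 (median -0.02; 0.50 and -0.29 within titles, and -0.20 to 0.44 with 1 tumour left out) and of 20 genes of MYC and ribosome biogenesis 12 (median 0.02; -0.40 in R172H, 0.25 in R245W and 0.06 in R270H). Rfc3, which loads the replication clamp, had -0.51 ± 0.23 (adjusted p = 0.480) and the flap nuclease Fen1 -0.61 ± 0.40 (adjusted p = 0.643). The centromere protein Cenpf had 0.51 ± 0.21 (adjusted p = 0.438) and Mki67, the proliferation marker, 0.60 ± 0.33 (adjusted p = 0.575). Some members differed among the missense genotypes by the F test. Gnl3, a nucleolar GTPase, had -0.93 in R172H, -0.64 in R245W and -0.03 in R270H (adjusted p among genotypes 0.0455; pooled -0.53 ± 0.20, adjusted p = 0.385). Ncl, a nucleolar protein, had -0.09, 0.82 and 0.70 (adjusted p among genotypes 0.0262; pooled 0.47 ± 0.18, adjusted p = 0.399). Myc had 0.19, 1.74 and 0.15 (adjusted p among genotypes 0.0383; pooled 0.69 ± 0.35, adjusted p = 0.541).

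**Figure D4:**
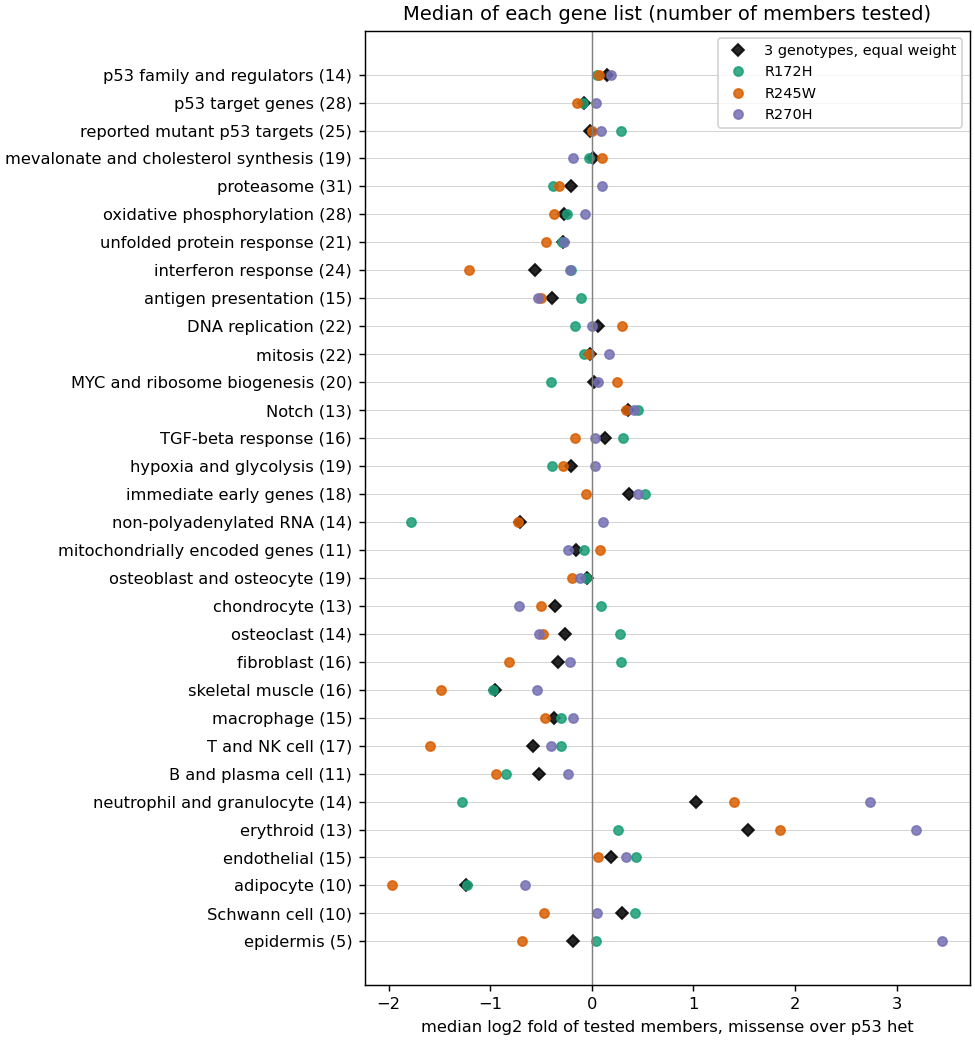
Median log2 fold over p53 het (x axis) of 32 gene lists (y axis, number of tested members in brackets); diamonds weight the genotypes equally and circles are single genotypes against the same 4 p53 het tumours. The median of all genes is -0.03. The Notch and unfolded protein response medians lie on 1 side of 0 in each genotype. So do those of several other lists, such as oxidative phosphorylation, macrophage, T and NK cell and adipocyte. The medians of blood and epidermis spread most.

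Genes of interferon, antigen presentation and lymphocytes had medians below 0. Fewer cells of a type and less RNA per cell cannot be told apart in these bulk samples. All 24 interferon response genes lay below 0 (median -0.56; -0.20 in R172H, -1.21 in R245W and -0.21 in R270H), but the median was -1.04 within titles with a serial number and 0.11 within those without. Isg15, a ubiquitin-like protein, was at 4.02, 70.1, 41.7 and 38.5 CPM in p53 het and from 2.54 to 49.9 CPM in missense tumours (-1.35 ± 0.61, adjusted p = 0.491). The viral tether Bst2 had -0.87 ± 0.40 (adjusted p = 0.500). Of 15 genes of antigen presentation 14 lay below 0 (median -0.39; -0.11 in R172H, -0.50 in R245W and -0.53 in R270H), with Psmb8, an immunoproteasome subunit, at -0.73 ± 0.34 (adjusted p = 0.502) and Tap2, a peptide transporter, at -0.42 ± 0.23 (adjusted p = 0.575). All 17 T and NK cell genes lay below 0 (median -0.58), and they summed to 19.3 to 88.1 CPM in p53 het, 34.7 to 93.8 CPM in R172H, 13.1 to 33.5 CPM in R245W and 12.8 to 60.01 CPM in R270H tumours. Cd8b1, a chain of the CD8 coreceptor, had -1.71 ± 0.44 (adjusted p = 0.205), and Klrb1c, the NK1.1 receptor, -0.96 ± 0.44 (adjusted p = 0.496). Of 15 macrophage genes 14 lay below 0 (median -0.37), with the calcium-binding protein Aif1 at -0.67 ± 0.34 (adjusted p = 0.544) and the mannose receptor Mrc1 at -0.48 ± 0.32 (adjusted p = 0.648). Of 11 B and plasma cell genes 9 lay below 0 (median -0.52, and 0.43 within titles without a serial number), with Mzb1, a chaperone of antibody secretion, at -1.48 ± 0.62 (adjusted p = 0.440). No gene of these lists passed.

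Other cell types varied from tumour to tumour. Of 16 skeletal muscle genes 15 lay below 0 (median -0.96), with Myl1, a myosin light chain, at -1.16 ± 0.71 (adjusted p = 0.619) and the muscle actin Acta1 at -1.47 ± 1.05 (adjusted p = 0.678). Without p53 het 4 the muscle median was 2.12. Of 10 adipocyte genes 8 lay below 0 (median -1.24, and -0.26 without p53 het 4), with the hormone Retn at -3.65 ± 0.999 (adjusted p = 0.234) and the complement factor Cfd at -2.67 ± 1.17 (adjusted p = 0.472).
Of 16 fibroblast genes 12 lay below 0 (median -0.34, but 0.29 in R172H), with the proteoglycans Dcn at -2.15 ± 0.69 (adjusted p = 0.308) and Lum at -1.16 ± 0.72 (adjusted p = 0.624). Of 13 chondrocyte genes 8 lay below 0 (median -0.36), with the cartilage matrix genes Comp at -1.45 ± 0.60 (adjusted p = 0.438) and Col2a1 at -1.76 ± 0.92 (adjusted p = 0.565). Of 14 osteoclast genes 10 lay below 0 (median -0.26, but 0.27 in R172H). This median ran from -0.59 to 0.45 with 1 tumour left out. The list summed to 330 to 15536 CPM in p53 het and 525 to 12347 CPM in missense tumours. Of the chloride transport genes, Ostm1 had -0.31 ± 0.28 (edgeR adjusted p = 0.744) and Clcn7 -0.28 ± 0.27 (edgeR adjusted p = 0.761). Among 19 osteoblast and osteocyte genes 10 lay below 0 (median -0.05), with Pdpn, an early osteocyte gene, at -1.45 ± 0.69 (adjusted p = 0.509) and the matrix protein Spp1 at 1.12 ± 0.54 (adjusted p = 0.516).
Erythroid genes had 11 of 13 above 0 (median 1.54; 0.26, 1.85 and 3.19 in R172H, R245W and R270H), with the red cell membrane gene Epb42 at 2.46 ± 1.12 (adjusted p = 0.496). Granulocyte genes had 10 of 14 above 0 (median 1.03; -1.28, 1.40 and 2.74), with the granule proteins Camp at 2.16 ± 1.38 (adjusted p = 0.637) and Ltf at 1.94 ± 1.31 (adjusted p = 0.657). Both lists were highest in R270H 5, where they summed to 2416 and 1658 CPM, against 239.9 to 839 and 25.5 to 129 CPM in p53 het tumours. Of 15 endothelial genes Erg, a transcription factor, had 0.36 ± 0.16 (adjusted p = 0.476) and the cadherin Cdh5 0.57 ± 0.30 (adjusted p = 0.570). Of 10 Schwann cell genes 7 lay above 0 (median 0.30), while Cdh19, the 1 of lowest p, had -1.94 ± 1.04 (adjusted p = 0.570) and Prx 0.28 ± 0.24 (adjusted p = 0.723). Of 11 epidermis genes 5 could be tested, 2 above 0 and 3 below (median -0.19), with Perp at 1.28 ± 0.95 (adjusted p = 0.690) and the keratin Krt10 at 1.28 ± 1.03 (adjusted p = 0.716). The epidermis list summed to 2.58 to 16.7 CPM in p53 het tumours and to 70.2 and 391 CPM in R270H 3 and 4. No member of these lists passed.

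Many more genes differed among the missense genotypes than between them, pooled, and p53 het. In the same fit 949 genes (4.60%) differed among R172H, R245W and R270H tumours (edgeR F test, adjusted p under 0.05). This contrast holds no p53 het tumour, while the other is limited by the 4 p53 het tumours, so the 2 counts are not alike in power. The contrast among genotypes also sets R270H, whose titles have no serial number, against R172H and R245W, whose titles have one. With the kind of title as a covariate it gave 25 genes, where the 4 p53 het tumours alone estimate the effect of the title. The number of genes called for missense against p53 het depended on single tumours. Leaving out p53 het 1 gave 69, p53 het 2 gave 44, p53 het 3 gave 5 and p53 het 4 gave 1. It was 1 each without R245W 2 or R245W 3, 4 without R270H 1, and 0 without any 1 of the other 11 tumours.

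**Figure D5:**
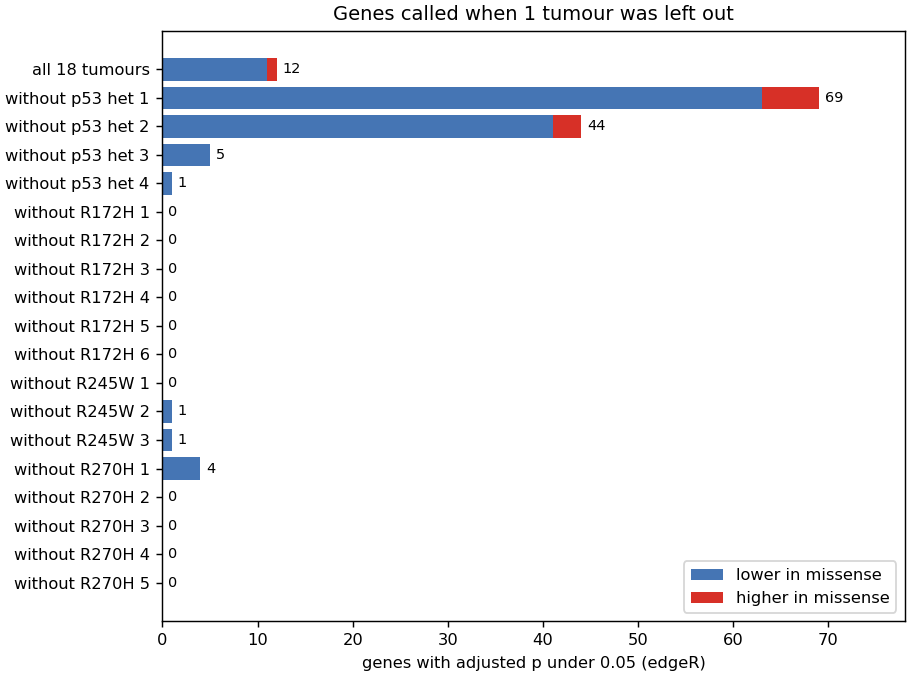
Number of genes called for missense against p53 het (x axis, from 0; blue lower, red higher in missense tumours) with all 18 tumours and with each left out in turn (y axis). The count is 12 with all tumours, 69 and 44 without p53 het 1 or 2, and at most 5 without any other tumour.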

How the data were processed

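Bulk total RNA of 18 tumours was analysed; the 2 cell line libraries of the series were left out. The authors deposited raw counts per gene (49585 gene IDs, 49326 matched to a symbol); per the submitters' processing notes reads were aligned with STAR 2.6.0b to GRCm38 and DESeq2 was used. The counting program, annotation, strand setting and any selection of RNA are not given in the sources used here. Depth was 20.1 to 29.2 megacounts per tumour.

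The fit was made with edgeR 4.0.16 in R 4.3.3: filterByExpr by genotype (minimum count 10, minimum total count 15; 20616 genes kept), TMM scaling, a quasi-likelihood fit with 1 mean per genotype (14 residual degrees of freedom) and the mean of the 3 missense genotypes minus p53 het. The 3 genotype contrasts share the 4 p53 het tumours. An F test with 2 degrees of freedom compared the missense genotypes. p-values were Benjamini-Hochberg adjusted over all genes, threshold 0.05. Standard errors are the log2 fold over the square root of F. CPM is per scaled total; on the log2 scale a prior count of 2 was added. Trp53, Cdkn1a and Mdm2 were also tested by exact two-sided permutation. The code was tested on simulated data.

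Named genes passed, averaged 1 CPM or more and had the same sign in each genotype: the 12 highest and 12 lowest, with at most 4 small RNAs a side. Gene models, pseudogenes and antigen receptor segments were passed over. Under 5 a side, the lowest p-values filled up to 5 as not passed. Of each list the 2 to 4 members of lowest p are given, apart from some genes that are not reported here. Gene lists were described, not tested. The groups, members, rule and lists were chosen with earlier results of these data known. RNA sequences come from GENCODE M21 transcripts (GRCm38).

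Alternatives were DESeq2 1.42.0 and its size factors, voom of limma 3.58.1 with sample quality weights, 2 other filters, 1 group of 14, each genotype left out, each kind of title alone or as a covariate, a muscle score as a covariate and each tumour left out. Only p53 het 1 and 2, or 3 and 4, were added after the data were seen.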

Additional observations from a re-analysis of the deposited data

Results flagged for a closer look

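Within groups of 4 to 6 tumours, 132 tests of the gap between the highest or lowest tumour and its neighbour as a share of the group's range were made, and chance marks about 1 group in 20. In log2 CPM, 10 passed. R270H 3 stood high in Rny3 (share 0.766; 7.99, next 7.06) and in Rn7s2 (0.761; 3.68, next 2.94). The other 8 concern mean log2 CPM of gene lists. For mevalonate and cholesterol synthesis R172H 4 stood high (0.625; 5.44, next 4.49) and R270H 5 low (0.749; 4.30, next 4.52). For MYC and ribosome biogenesis p53 het 4 stood high (0.903; 6.58, next 5.97). For Notch R270H 2 stood low (0.747; 4.40, next 4.88), as it did for non-polyadenylated RNA (0.929; 6.61, next 7.18). For immediate early genes R172H 6 stood high (0.638; 5.56, next 4.22). R270H 4 stood low for osteoclast genes (0.751; 3.14, next 6.54) and R270H 3 for adipocyte genes (0.743; 1.11, next 2.29).

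The 3 missense genotypes differed, by the edgeR F test adjusted over all genes, in 8 of the 20 named or called genes tested. The adjusted p was 3.21e-09 for Rpl3-ps1 and 3.54e-05 for Ndufs5, both set apart by R245W. It was 0.00506 for BC018473 and 0.00674 for Gm11942, where R245W lay near p53 het. It was 0.0131 for Rn7s2, 0.0198 for Gm24514 and 0.0475 for Rny3, which were higher in R270H than in the other missense genotypes. It was 0.0423 for Foxo1, highest in R245W.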

How the results depend on the processing

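The number of genes called in missense against p53 het, 12, was 130 with DESeq2 (36.2% higher, against 8.33% with edgeR), 41 with no filter, and 0 with limma voom (1345 at an unadjusted p under 0.05), as 1 group of 14 (1414), without R245W tumours (1590), without R270H tumours (2346), with the kind of title as a covariate (1721) or with the muscle score (1929). It was 4 without R172H tumours (2 of them among the 12), 3 among titles with a serial number (1 of the 12) and 2 among those without (0 of the 12), and 0 to 69 with 1 tumour left out. Chosen after seeing the data, p53 het 1 and 2 alone gave 5 and p53 het 3 and 4 alone 201. The number that differed among missense genotypes, 949, was 2256 with voom, 575 with no filter, 25 with the kind of title as a covariate, 586 with the muscle score and 331 to 1147 with 1 tumour left out. Trp53 passed at 1.16 with DESeq2, and its log2 fold ran from 1.01 to 1.40 with 1 tumour left out, passing without p53 het 2. Against p53 het 1 and 2 alone Rny3 (0.016), Rn7s1 (0.84) and Rn7s2 (0.73) had the opposite sign. List medians changed sign in 0 of 32 lists with DESeq2 or its size factors and in up to 9 within a kind of title. The causes were not tested. No paired analysis was possible because tumours were numbered in order of accession, which pairs none.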
